A study of Saccharomyces cerevisiae with 54 samples.

Results

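YJM789 is a haploid Saccharomyces cerevisiae strain of clinical origin with a sequenced genome, and it was 1 of 17 wild, industrial, clinical and vineyard strains whose transcripts were compared with those of a common laboratory strain. Its data were the 3 arrays whose titles set YJM789 against DBY8268, of 54 arrays in all, and each of the 16 other strains had 3 or 4 arrays. Every array was a spotted oligonucleotide array on which labelled cDNA of 1 strain competed with labelled cDNA of DBY8268, a diploid of the S288C background carrying ura3-52/ura3-Δ, ho/ho and GAL2/GAL2. The cells were in log phase in rich glucose medium (YPD) and received no treatment. All arrays of YJM789, RM11a and M22 lay in 1 slide series, slide series 6, whereas each of the 14 other strains had 1 or 2 arrays in it and the rest in other series. The replicates are described as biological, and a single line stands for each strain. The files held 6264 genes as log2 ratios of strain over DBY8268. YJM789 is compared below mainly with the mean of the 16 other strains' means, from which DBY8268 drops out, and its ratio to DBY8268 is given beside that difference. RM11a, the other haploid, is included in that mean, whereas the study does not call the remaining 15 strains haploid. As the study describes them, the other strains came from vineyards (B1, I14, M8, M22, PR and RM11a), sake (K1 and K9), oak (YPS163 and YPS1009), other fermentations (Y12 and YJM269), a patient (YJM308) and other natural sources (Y1, Y10 and SB).

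A haploid budding yeast cell carries 1 mating type. An alpha cell makes alpha factor and a receptor for the a pheromone, an a cell makes the reciprocal set, and a diploid shuts off both programs along with the signalling genes that haploids of either type share. Yeast given ample glucose takes up hexose through low-affinity transporters, represses respiration, gluconeogenesis and high-affinity uptake, and keeps few reserve carbohydrates. Trehalose, glycogen and the small heat shock protein Hsp12 are known to accumulate when glucose runs low or under stress. Flocculins are cell wall proteins that bind cells to one another, and Ty elements are retrotransposons whose copy number differs among strains.

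The 3 YJM789 arrays did not agree equally well. They held values for 4662, 4675 and 3393 genes, where the arrays of the other strains held 3478 to 5897 with a median of 5358. Across genes, array 1 correlated with array 3 (Pearson r = 0.732), but array 2 correlated with arrays 1 and 3 at only 0.406 and 0.329. Array 2 instead resembled the third RM11a array (r = 0.738), which lay on another slide, and that RM11a array correlated with its own replicates at 0.454 and 0.508. On these 2 arrays the mating-type genes fitted the labels: the alpha-specific genes STE3 and SAG1 stood at 7.18 and 5.29 on YJM789 array 2, and the a-specific genes STE2 and MFA1 stood at 7.49 and 4.36 on RM11a array 3, with SAG1 there at -0.07. Array 3 carried a few isolated high values, such as 6.31 for ICL1 and 5.93 for MRPL35. The part that these arrays have in each result was examined by leaving out each YJM789 array in turn, and a gene is called retained below where its difference stayed past the threshold in all 3 of those fits. Of the genes called below, 120 had values on only 2 YJM789 arrays. For such a gene 1 of the fits leaves out no value and the other 2 rest on 1 array, so being retained is weaker support for it.

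**Figure D1:**
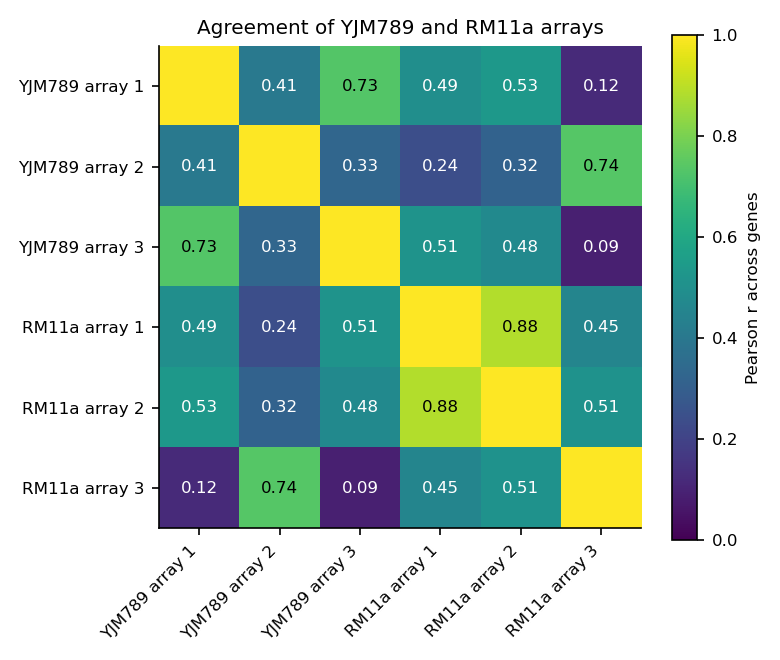
Pearson correlation across genes of the log2 ratios between each pair of the 3 YJM789 and 3 RM11a arrays, with the colour scale running from 0 to 1. YJM789 arrays 1 and 3 correlate at 0.73, and YJM789 array 2 correlates best with RM11a array 3 at 0.74.

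Of 4422 genes with at least 2 YJM789 values and values in at least 8 other strains, 551 (12.5%) differed between YJM789 and the mean of the other strains, 422 upward (9.54%) and 129 downward (2.92%) (limma, Benjamini-Hochberg, false discovery rate 0.01). With arrays of slide series 6 alone, 210 genes differed, 140 higher and 70 lower. The retained genes numbered 183 (4.14%), of which 139 (3.14%) were higher and 44 (0.995%) were lower. The median difference over all genes tested was 0.16, and it lay at -0.01, 0.08 and 0.26 on arrays 1, 2 and 3 and at 0.05 with all arrays scaled to one spread. The same contrast called fewer genes in each of the other strains, from 329 in M22 and 275 in RM11a to 36 in I14. The 3 strains with the most calls were those whose arrays all lay in slide series 6, so strain and slide series cannot be told apart in that order. It did not survive the same scaling, under which YJM269 had 273 genes, YJM789 had 250 and M22 had 215. Against DBY8268, 867 of 4424 genes differed in YJM789 (19.6%), with 596 higher (13.5%) and 271 lower (6.13%). Of the 551 genes that differed from the other strains, 411 also differed from DBY8268, and 393 of these did so in the same direction. The spread in these tests was pooled over all 17 strains. When it came from the YJM789 arrays alone, 22 genes differed from the other strains, of which 18 were Ty element spots. A ratio on these arrays changes with transcript level, with gene copy number and with mismatch between a strain's sequence and the probe, which cannot be told apart from these data.

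Mating-type genes matched an alpha haploid. MF(ALPHA)1, which encodes alpha factor, had log2 ratios of 9.66 and 8.81 on YJM789 arrays 1 and 2. The 8 other strains with values, RM11a not among them, ranged from -1.47 to 1.32. STE3, the a-factor receptor gene, stood at 7.70 and 7.18, and the agglutinin gene SAG1 at 4.96, 5.29 and 6.43. All 4 alpha-specific genes tested were higher, by a median of 6.72, and all were retained. None of the 7 a-specific genes could be tested, and MFA1, an a-factor gene, gave 1 YJM789 value of -0.18 against a mean of 4.52 in RM11a. All 5 haploid-specific genes tested were higher and retained (median difference 3.37), among them STE4 and STE5 of the pheromone signalling pathway. RDH54, a recombination gene shut off in diploids, had ratios of 3.54, 2.73 and 3.50 in YJM789 and averaged 2.98 in RM11a. Of 13 pheromone response genes tested, 5 were higher and 1, PRM4, was lower (median 0.68). AGA1 (2.81 and 2.57), SST2 (1.97, 4.96 and 2.37), MSB2 (2.18, 3.99 and 1.95) and STE12 (1.78, 1.65 and 1.72) were all retained. RM11a had the next highest mean for each of these 4 genes, at 1.44, 2.20, 2.54 and 1.58.

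Flocculin genes showed the widest separation from the other strains outside mating type. FLO1, which encodes a lectin-like flocculin, had ratios of 5.74 and 5.71 on YJM789 arrays 1 and 2 and no value on array 3, and no other strain mean exceeded -0.45. The difference was 6.84 ± 0.39 (SE, 2 arrays), or 115-fold (limma, adjusted p = 4.8e-15). FLO9 stood at 5.77 and 5.95, and FLO5 at 3.65 and 3.41, against highest means among the other strains of 0.38 and -0.09. The differences were 6.19 and 4.44, and all 3 genes tested of the 6 in this family were retained. FLO11, the adhesin of filamentous and surface growth, gave 8.28 on YJM789 array 1 alone and was not tested, while means of the other strains ran from -2.23 to 1.19. FLO1, FLO5 and FLO9 are close in sequence and can cross-hybridize, so their spots are not independent readings.

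Of the lists examined, Ty element spots had the most members that set YJM789 apart. Of 79 tested, 71 were higher than the mean of the other strains, none was lower, and 61 were retained, with a median difference of 3.14. The YJM789 arrays had Ty medians of -0.43, -0.29 and -0.59, that is, near the level of DBY8268. Over all spots the other strains had lower medians: YJM308 was closest at -1.24, Y1 followed at -1.48, and PR and RM11a were lowest at -5.51. For example, YMR050C had ratios of -0.06, 0.08 and -0.08 in YJM789, whereas the other strain means ran from -5.99 to -1.59. Against DBY8268 none was higher and 16 of the 79 were lower (20.3%), where 6.13% of all genes tested were lower. All 16 were among the 40 spots with short reading frames (1317 to 1437 bases), which stood at medians of -1.84, -0.28 and -1.99 on arrays 1, 2 and 3. The 39 long reading frames (3468 to 5383 bases) stood at -0.30, -0.32 and -0.44. At the long frames the YJM789 median was -0.39, and the highest other strain was Y1 at -1.3. At the short frames YJM308 stood at -1.23, above YJM789 at -1.4, so YJM789 was not the highest strain there. Ty copies are nearly identical, so these spots amount to far fewer independent measurements than their number. The third RM11a array had values at only 40 of the spots, with a median of 0.29, and at those 40 spots RM11a arrays 1 and 2 had medians of -0.60 and -0.84. On each of the 3 RM11a arrays, 13 of the 40 were below -3.

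**Figure D2:**
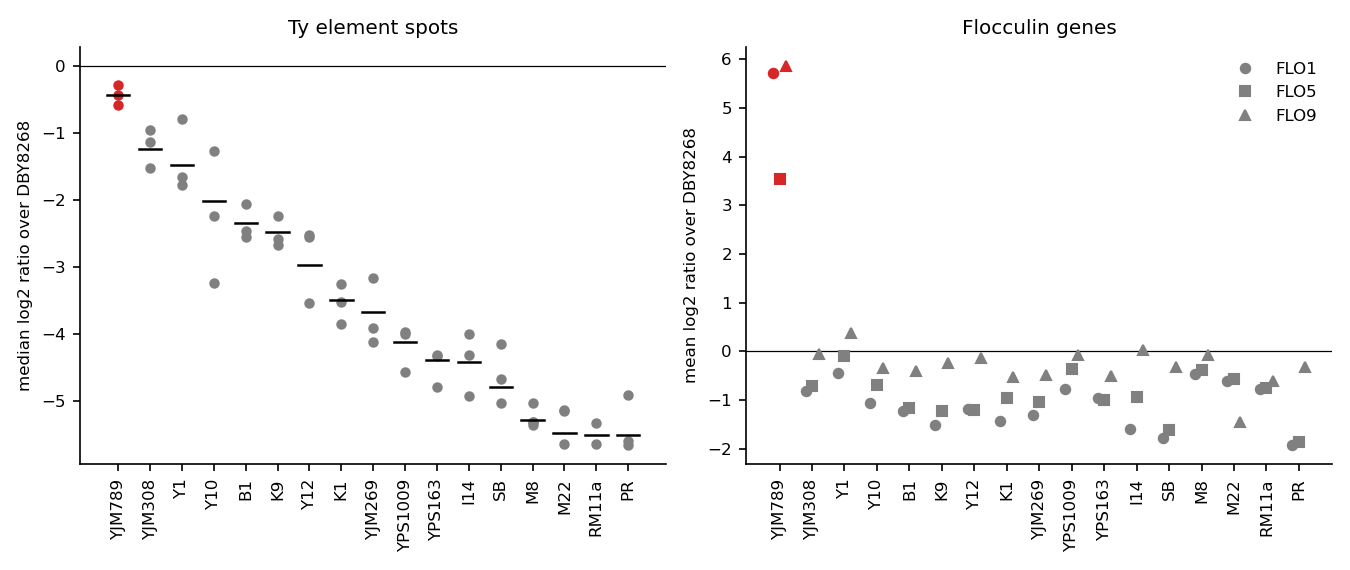
Left, the median log2 ratio over DBY8268 of Ty element spots on each array (points; arrays with values at fewer than 50 of the 79 spots are not drawn) with the strain's median (bar). Right, the mean log2 ratio of FLO1, FLO5 and FLO9 in each strain. YJM789, in red, has the highest Ty medians over all spots, -0.29 to -0.59, and is the strain with flocculin means above 0.38.

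Outside the mating and Ty lists, the gene farthest above the other strains with values on all 3 arrays was HSP12, whose product protects membranes. Its ratios were 5.80, 4.21 and 5.03 in YJM789, and the other strains spread from -5.75 in M22 to 4.5 in K9. The difference was 5.30 ± 0.74 (SE, n = 3), or 39.3-fold (limma, adjusted p = 3e-05), and it was retained. Array 2 of YJM789 thus overlapped K9. DAD3, a subunit of the kinetochore's DASH complex, followed a tighter pattern at 2.24, 3.94 and 3.77, all above the highest other mean of 1.96. SMP1, a MADS-box transcription factor gene, had ratios of 2.33, 4.39 and 3.57 against a mean of 0.33 in the other strains, whose highest was 1.38, and both genes were retained. TEC1, the transcription factor that acts with Ste12 in filamentous growth, stood at 3.85, 2.92 and 4.41. Its difference of 3.36 ± 0.24 was retained, but RM11a averaged 3.72 and was within the YJM789 range.

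Mitochondrial intron reading frames also ranked high. SCEI, the endonuclease encoded in an intron of the large ribosomal RNA gene, had ratios of 1.36, 2.19 and 0.67 in YJM789 and averaged -3.65 in the other strains. AI1, encoded in an intron of COX1, stood at 0.51, -1.22 and -0.29 against a mean of -3.53. The differences of 5.06 and 3.2 were retained. Neither gene was past the threshold between YJM789 and DBY8268 (limma, adjusted p = 0.25 for SCEI and 0.7 for AI1). For AI1 the other strains fell into 2 sets, 9 with means of -1.07 to -0.05 and 7 with means of -7.83 to -6.77. YJM789 lay within the first set, so AI1 separated it from 7 strains and not from the other 9. For SCEI, 4 of the 15 other strains with values had means of -1.58 to 1.5, and 11 had means of -6.21 to -3.18. AI4 showed the same order (0.66, -0.56 and -0.15 in YJM789), but its call was lost in each of the 3 leave-one-out fits. MRH1, a plasma membrane protein gene, was far above the other strains on array 2 alone, with ratios of -1.06, 3.52 and -0.90, and its call was lost without that array.

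**Figure D3:**
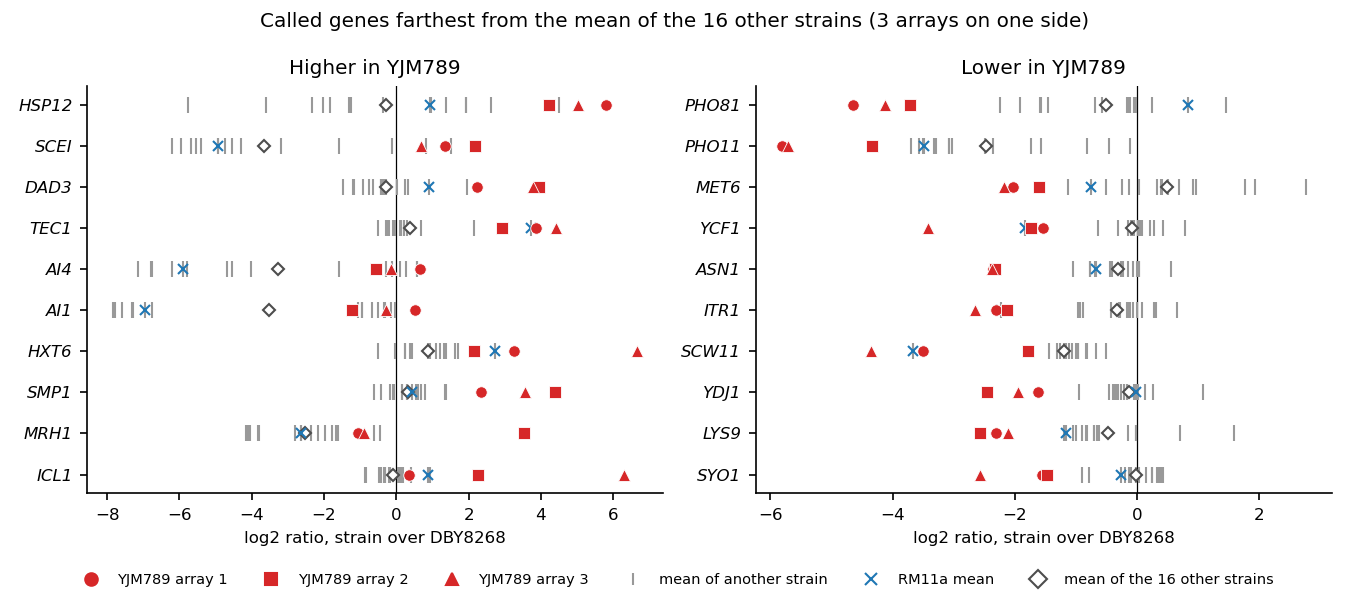
Among called genes with a symbol and all 3 YJM789 values on one side of the mean of the 16 other strains, the 10 farthest above and the 10 farthest below that mean, excluding mating genes and Ty elements, on a log2 ratio axis over DBY8268. Red symbols are the 3 YJM789 arrays, grey ticks the means of other strains, the blue cross RM11a and the open diamond the mean of the 16 other strains. ASN1 has its 3 YJM789 values, -2.35, -2.32 and -2.37, almost on one point, whereas ICL1, HXT6 and MRH1 owe their places to a single array.

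Several genes of trehalose and glycogen metabolism were higher in YJM789. Of 14 tested, 5 were higher, none was lower and 2 were retained, and the remaining 9 also had positive differences. The list's median was 1.43, against 0.16 for all genes tested, and its members' median ratio to DBY8268 was 1.58 in YJM789, with YJM308 next at 0.95. GPH1, glycogen phosphorylase, stood at 4.79 and 4.54 on YJM789 arrays 1 and 2, above the other strains' highest mean of 2.94, for a difference of 4.77 ± 0.60 (limma, adjusted p = 8.8e-06). For GPH1 14 other strains had values, and RM11a and M22 had none. UGP1, which supplies the UDP-glucose used to build both sugars, had ratios of 1.12, 1.75 and 1.85 in YJM789 and a mean of 0.14 in the other strains. Its difference of 1.43 ± 0.23 was retained. TPS2, trehalose phosphate phosphatase, had values of 1.78 and 3.93, and NTH1, neutral trehalase, had 1.65, 0.86 and 2.28. K9 averaged 1.99 for TPS2, above YJM789 array 1, and the TPS2 difference fell from 2.41 to 1.34 without array 3. TPS2 also missed the threshold with arrays scaled to one spread (limma, adjusted p = 0.032). Both synthetic and degradative enzymes were thus among the 5. With arrays scaled to one spread, 3 of the 14 were higher.

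Heat shock genes as a group did not follow HSP12. Of 19 tested, 2 were higher and 3 were lower, with a median of -0.19. HSP42, a small heat shock protein gene, had ratios of 0.91, 2.00 and 4.32, and its call was lost without array 3. The 3 lower genes encode chaperones of the cytosol. YDJ1, an Hsp40 cochaperone gene, stood at -1.62, -2.45 and -1.94 against a mean of -0.13 in the other strains (lowest -0.94 in K9), a difference of -1.87 ± 0.33 that was retained. SSA1 (-1.63, -1.78 and -1.98) and HSC82 (-1.34, -0.76 and -1.63) differed by -0.99 and -0.79 and were not retained. SSA1 averaged -1.88 in RM11a, below its YJM789 mean of -1.80. Oxidant defence genes leaned upward, with 5 of 24 higher (20.8%, against 9.54% of all genes tested) and none lower (median 0.38). Of these, 2 were retained, and with arrays scaled to one spread 1 of the 24 was higher. The list's median ratio to DBY8268 was 0.46 in YJM789 and 0.4 in YJM308. PRX1, the mitochondrial peroxiredoxin, had ratios of 1.00, 1.94 and 1.04 and was retained. CTT1, the cytosolic catalase, was not past the threshold (1.93, 0.99 and -0.14, limma adjusted p = 0.41).

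Hexose transporter genes moved in both directions. Of 11 tested, 4 were higher and 2 were lower. The higher group held the high- and intermediate-affinity or stress-linked transporters HXT4 (3.21, 4.37 and 5.88), HXT5 (3.15 and 2.99), HXT6 (3.26, 2.15 and 6.66) and HXT7 (2.78, 1.84 and 3.23), with differences of 2.77, 2.61, 3.15 and 2.01. None of the 4 was retained, and RM11a had means of 2.83, 1.42, 2.72 and 1.95 for these genes. HXT6 and HXT7 are nearly identical and may share signal. The low-affinity transporter gene HXT1 was lower and retained, at -2.30, -1.09 and -2.25 in YJM789 against a mean of -0.08 in the other strains (difference -1.80 ± 0.32, limma adjusted p = 4.4e-05). RM11a was at -2.28 for HXT1, so the means of both haploids lay below those of the remaining strains. HXT3, also low-affinity, differed by -1.15 and lost its call in every leave-one-out fit. With arrays scaled to one spread, HXT1 was the 1 call left in this list.

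Genes for acetate use, the glyoxylate cycle and gluconeogenesis had 4 of 11 higher and none lower (median 0.83), and none was retained. ICL1, isocitrate lyase of the glyoxylate cycle, had ratios of 0.35, 2.26 and 6.31, so its difference of 3.06 came largely from array 3, without which it was 1.39 (limma, adjusted p = 0.013). PCK1, the gluconeogenic carboxykinase, had 2.16 and 3.76 in YJM789, above the highest other mean of 1.39 in K9. For PCK1 only 9 other strains had values, and RM11a had none. ALD3, an aldehyde dehydrogenase gene, had 3.16 and 2.38, and ACH1, which acts on acetyl-CoA, had 1.01, 1.53 and 1.85. The highest other means were 2.1 in RM11a for ALD3 and 1.0 in K9 for ACH1. Enzymes of the tricarboxylic acid cycle had 3 of 9 higher and none lower (median 0.51), and IDH2, a subunit of isocitrate dehydrogenase, was retained at 0.92, 0.34 and 1.87 against a mean of -0.53. CIT1 rested on its array 3 value of 4.35.

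In most lists of the respiratory chain, and in the mitochondrial ribosome, more genes were higher against DBY8268 than against the other strains. Over all genes tested the shares were 13.5% and 9.54%. The counts were 6 and 1 of 8 for nuclear cytochrome oxidase and 10 and 1 of 17 for nuclear ATP synthase. They were 14 and 3 of 32 for respiratory assembly and 6 and 3 of 10 for dehydrogenases and cytochrome c. Ubiquinone synthesis had 3 of 9 in both comparisons. Of 8 nuclear-encoded subunits of cytochrome bc1 tested, 7 exceeded DBY8268, whereas all 8 fell short of the threshold against the other strains (limma, and 0 of 8 at an unadjusted p under 0.05). COX4 was the one nuclear cytochrome oxidase subunit called of 8 tested, with ratios of 1.31, 6.63 and 3.69, and the call was lost without array 2. CYC1, the main cytochrome c gene, had ratios of 2.67, 3.11 and 3.15 in YJM789 and a mean of 2.60 in the other strains (difference 0.38, limma adjusted p = 0.44). Among dehydrogenases and cytochrome c, 3 of 10 were higher than in the other strains (median 0.67), and none was retained: the cytochrome c gene CYC7 (2.54 and 2.20) and the NADH dehydrogenase genes NDI1 (1.67 and 3.82) and NDE1 (1.57, 3.62 and 1.81). The median ratio of these 10 genes was 1.76 in YJM789, the highest of the 17 strains, with YJM308 next at 1.44. Ubiquinone synthesis had 3 of 9 higher (COQ5, COQ6 and COQ9, median 0.34), none of them retained. HAP1, the heme-responsive activator of such genes, stood at -2.18, -3.20 and -2.28 in YJM789, and the other strains averaged -1.70 (adjusted p = 0.041). Among 61 mitochondrial ribosomal protein genes, 4 were higher and 1 was lower than in the other strains (median 0.44), whereas 40 were higher than in DBY8268. None of the 4 higher genes was retained. The lower gene, RSM22, was retained at -1.14 and -1.52, with RM11a at 0.52. The other strains' mean ratios also lay above DBY8268, with list medians of 1.12 for cytochrome bc1 and 1.33 for nuclear cytochrome oxidase. They were 0.61 for nuclear ATP synthase and 0.55 for the mitochondrial ribosome. With arrays scaled to one spread, 0 genes were higher than in the other strains in the bc1, oxidase, ATP synthase, assembly and dehydrogenase lists. Ubiquinone synthesis and the mitochondrial ribosome kept 1 each.

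**Figure D4:**
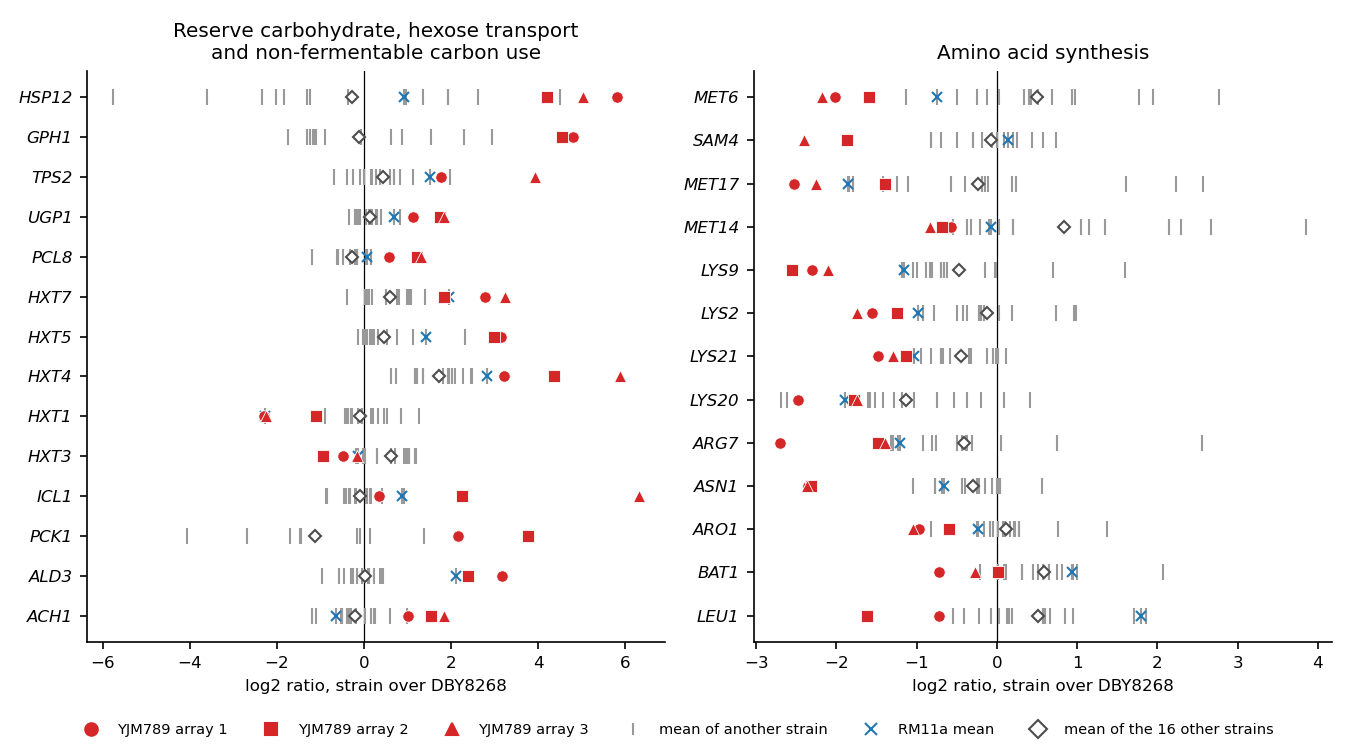
Log2 ratios over DBY8268 of genes of reserve carbohydrate, hexose transport and non-fermentable carbon use (left) and of amino acid synthesis (right). Symbols are the 3 YJM789 arrays in red, the means of other strains as grey ticks, RM11a as a cross and the mean of the 16 other strains as a diamond. GPH1 and UGP1 lie above all other strain means drawn in YJM789, whereas ASN1, SAM4 and MET6 lie below all of them. GPH1 has no value in RM11a, and PCK1 has values in only 9 other strains.

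Some genes of amino acid synthesis were lower in YJM789 in each of several pathways. In sulfate assimilation and methionine and cysteine synthesis, 8 of 20 genes tested were lower, none was higher and 5 were retained, with a median of -0.82 against 0.16 for all genes tested. MET6, methionine synthase, had ratios of -2.02, -1.60 and -2.18 in YJM789, all below the lowest other mean of -1.13 in YPS163. It differed by -2.43 ± 0.40 (SE, n = 3), a 5.41-fold lower level (limma, adjusted p = 1.1e-05). SAM4, which recycles S-adenosylmethionine into methionine, stood at -1.87 and -2.40 on arrays 2 and 3, while the lowest other mean was -0.82. MET17, which fixes sulfide into homocysteine, had -2.53, -1.40 and -2.25, overlapping RM11a at -1.86, YJM308 at -1.85, YPS1009 at -1.79 and YPS163 at -1.42. MET14, adenylylsulfate kinase, was at -0.57, -0.68 and -0.84, close to DBY8268 (adjusted p = 0.059), and lay below the other strains through their mean of 0.83, with M22 at 3.85. Among the sulfur genes not past the threshold, MET13 had a value of 3.04 on array 2 and -0.88 on array 3.

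ASN1, an asparagine synthetase gene, gave nearly equal readings on all 3 arrays. Its ratios were -2.35, -2.32 and -2.37 in YJM789, and the other strains ran from -1.04 to 0.56. The difference was -2.05 ± 0.19, 4.13-fold lower (limma, adjusted p = 8.6e-11), and it was retained. It was the only 1 of 9 aspartate and threonine family genes tested to pass, in a list whose median was -0.46.

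Lysine synthesis had 4 of 8 genes lower and none higher (median -0.82), 2 were retained, and 1, LYS9, was called with arrays scaled to one spread. LYS9, saccharopine dehydrogenase, stood at -2.31, -2.56 and -2.11 in YJM789 against a mean of -0.47 in the other strains, whose lowest was -1.19 in K1 (difference -1.86 ± 0.27, limma adjusted p = 1.3e-06). LYS21, a homocitrate synthase gene, had -1.48, -1.13 and -1.30, and its paralogue LYS20 had -2.48, -1.78 and -1.74. LYS20 was lower still in K1, at -2.69. LYS2, which reduces aminoadipate, had -1.56, -1.25 and -1.74, and its call was lost without array 3. In arginine synthesis, ARG7, an ornithine acetyltransferase gene, was lower and retained, with ratios of -2.70, -1.48 and -1.39 in YJM789. It lay below every other strain mean on all 3 arrays, and YJM269 had the highest mean of the other strains, at 2.56.

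Other amino acid pathways had fewer calls. Aromatic synthesis had 2 of 14 lower, of which ARO1 was retained (-0.97, -0.60 and -1.05). Branched-chain synthesis had 2 of 10 lower, LEU1 and BAT1, and histidine synthesis had 1 of 7 higher, HIS2. For HIS2 the call was lost without array 3, on which it read 2.40. The medians of these 3 lists were -0.33, -0.59 and -0.48. Of 17 aminoacyl-tRNA synthetase genes, 2 were lower (median -0.26). Among 11 permeases, PUT4 and TAT1 were higher and GNP1, a glutamine permease gene, was lower, and of these GNP1 alone was retained (-0.74, -0.34 and -0.86). By list median, YJM789 was the lowest of the 17 strains for sulfur (-0.48), lysine (-1.0), branched-chain (-0.52) and histidine (-0.48) genes. The next lowest were RM11a at -0.28, K1 at -0.87, K9 at -0.45 and YPS163 at -0.39. It was not the lowest for aromatic genes (-0.2, with K9 at -0.26) or arginine genes (-0.67, with RM11a at -0.72).

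In the phosphate pathway the largest difference lay in a regulator. PHO81, the inhibitor of the Pho80-Pho85 kinase, had ratios of -4.64, -3.72 and -4.13 in YJM789, whereas the other strains ran from -2.24 in YJM308 to 1.47 in M22. The difference was -3.67 ± 0.77, 12.7-fold lower (limma, adjusted p = 0.00043), and it was retained, but it missed the threshold when arrays were scaled to one spread (-2.45, adjusted p = 0.032). PHO11, an acid phosphatase gene, stood at -5.81, -4.33 and -5.71 against a mean of -2.47 and was also retained (difference -2.81 ± 0.43). With arrays scaled it missed the threshold as well (-1.18, adjusted p = 0.17). PHO11 is one of a group of near-identical subtelomeric phosphatase genes, so its spot may read several copies. PHO84, the high-affinity phosphate transporter gene, and PHO5, the main acid phosphatase gene, differed by -0.75 and -0.57 and did not pass (adjusted p = 0.25 and 0.23). PHO2, a homeodomain regulator gene, was the 1 higher call of the 17 phosphate genes tested, and it rested on array 2 (-0.21 and 3.10). Against DBY8268, 11 of the 17 were lower, where 6.13% of all genes tested were lower. The list's median ratio was negative in every strain, at -1.36 in YJM789 and from -1.23 in YJM308 to -0.52 in K1 among the others.

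Genes acting when mother and daughter separate also differed, with 1 higher and 3 lower of 8 tested. AMN1, an antagonist of the exit from mitosis and of daughter-specific expression, had ratios of 0.45, 0.03 and 0.76 in YJM789 and a mean of -1.01 in the other strains. The difference of 1.42 ± 0.20 was retained, with RM11a at 0.21 as the nearest strain. The 3 lower genes encode cell wall hydrolases made in daughter cells. SCW11 stood at -3.50, -1.78 and -4.35, DSE4 at -1.74, -2.42 and -3.89, and the chitinase gene CTS1 at -3.14, -1.44 and -3.42. RM11a lay at -3.66, -2.95 and -4.13 for these, so the haploids were the lowest for all 3, and SCW11 alone was retained. All 3 missed the threshold with arrays scaled to one spread (limma, adjusted p = 0.025, 0.16 and 0.79).

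Transporter and metal genes gave scattered differences. YCF1, the vacuolar pump for glutathione conjugates, had ratios of -1.53, -1.73 and -3.42 in YJM789, with RM11a at -1.83 and M8, the next lowest, at -0.635. ITR1, the myo-inositol transporter gene, had -2.30, -2.12 and -2.65, with RM11a at -2.22. Both were retained, with differences of -2.15 ± 0.27 and -2.04 ± 0.25. The drug pump genes SNQ2 (1.28, 1.49 and 1.74) and YOR1 (1.27, 0.86 and 1.30) were higher by 1.30 and 1.01 and retained, in a list of 9 with 2 higher and 1 lower, but neither was called with arrays scaled to one spread. CRS5, a metallothionein gene, had 1.69, 1.49 and 1.95 against a mean of 0.32 and was retained, though not called after that scaling (adjusted p = 0.018), whereas CUP1-1 was not past the threshold in either case. GPP2, glycerol phosphatase, stood at 1.22, 1.52 and 1.92 in YJM789 and -0.52 in the other strains, and was the 1 call of 7 glycerol genes.

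Genes of cell growth lay slightly low as lists with few calls. Of 128 cytosolic ribosomal protein genes, 4 were lower and none higher (3.12% called), near the 2.92% lower among all genes tested. Their median was -0.36 with 114 differences below 0, where all genes tested had a median of 0.16 and 1689 of 4422 differences below 0. The 4 were RPL16A, RPS22A, RPS30B and RPL33B, with differences of -0.65 to -1.04, and none was retained. Of 59 ribosome biogenesis genes, 3 were lower (5.08%, median -0.29). SYO1, which carries ribosomal proteins into the nucleus, was lower by 1.85 on the log2 scale and lost its call without array 3. In the ergosterol pathway, 2 of 22 were lower (9.09%). ERG2, the sterol isomerase gene, was retained at -0.15, -0.47 and -0.12 against a mean of 0.80 in the other strains and a lowest of 0.29 in Y1. Against DBY8268 ERG2 was not past the threshold (adjusted p = 0.17).

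**Figure D5:**
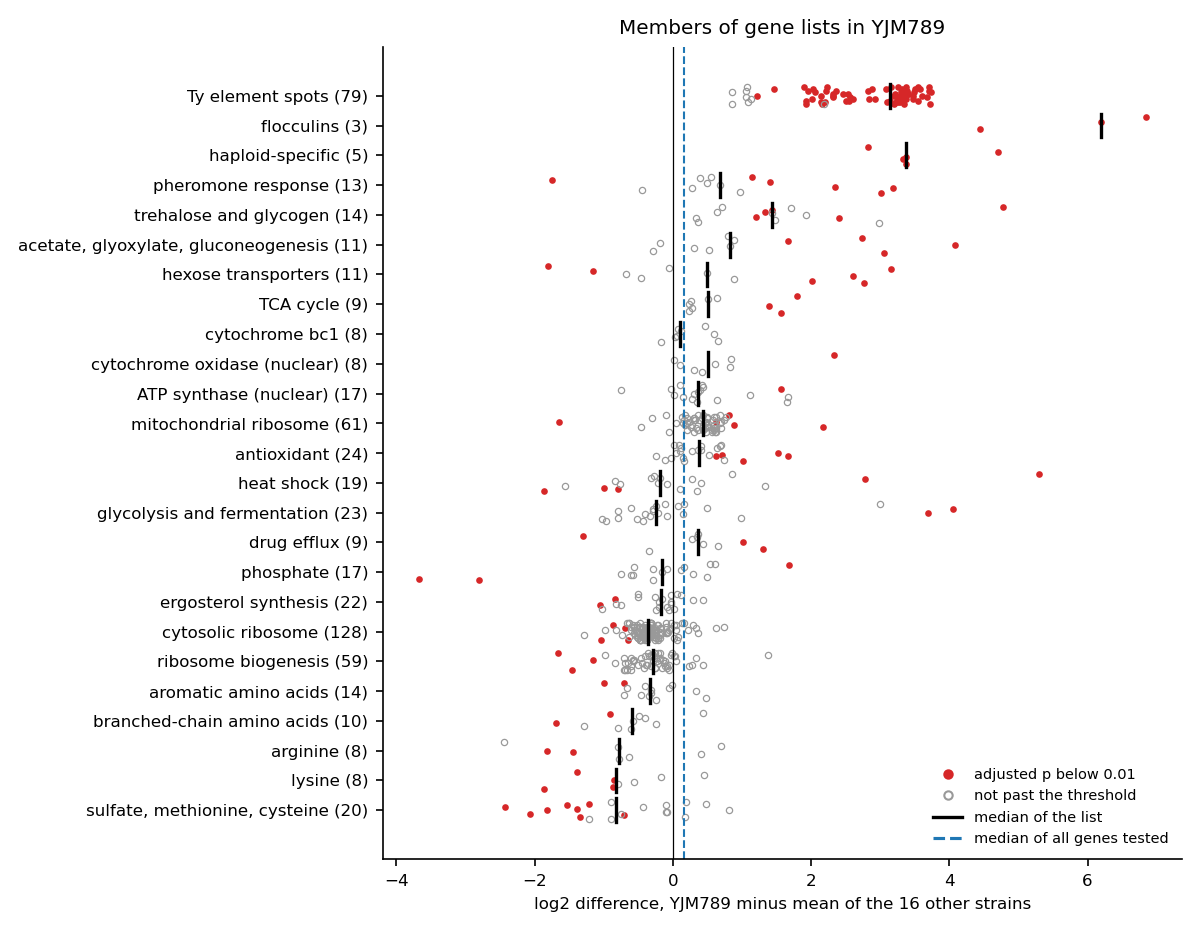
Differences between YJM789 and the mean of the 16 other strains, in log2 units, for the tested members of each list (number in brackets). Filled red points had an adjusted p below 0.01, open points did not, black bars are list medians and the dashed line is the median of all genes tested, 0.16. Ty element spots, flocculins and haploid-specific genes lie to the right, and sulfur and lysine genes to the left.

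YJM789 shared each of its 3 slides with RM11a, which allowed the haploids to be compared within slides. The paired arrays' deviations from their strain's own mean correlated at 0.466, -0.729 and -0.652 on slides 1, 2 and 3. On slides 2 and 3 the pairing thus widened the spread of the differences, and few calls do not show that the haploids were alike. Of 4152 genes, 9 differed at a false discovery rate of 0.01 (0.217%), all of them Ty element spots higher in YJM789 by 4.55 to 5.46, and with arrays scaled to one spread none passed (317 genes at an unadjusted p under 0.05). The Ty differences were not alike on the 3 slides. Their median was 5.1 over 77 spots on slide 1 (70 above 0) and 4.98 over 78 spots on slide 2 (67 above 0), but -0.57 over 40 spots on slide 3, where 15 were above 0. At those same 40 spots the medians were 0.42 and 0.4 on slides 1 and 2. At 0.05 there were 57 (1.37%), of which 50 were Ty spots. The 7 others included PHO81 (slide differences of -5.43, -4.01 and -5.55, limma adjusted p = 0.024) and FLO1 (6.12 and 6.86, adjusted p = 0.027).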

How the data were processed

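The deposited table held log2 ratios of each strain over DBY8268, 1 column per array; per the study's methods, the authors kept unflagged spots, normalized by regional mean-centering and reversed the dyes between replicates. On YJM789 array 3 the dyes were reversed, and its ratios were taken to run the same way because SAG1 was high on all 3 arrays. No count of molecules is available, so the number of arrays limits precision. Of 6264 genes, 5824 matched the R64 annotation, used for symbols and reading-frame lengths only, and 19.1% of values were missing.

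In limma 3.58.1 (R 4.3.3), 1 coefficient per strain was fitted over 54 arrays, with 1 variance per gene, and YJM789 was contrasted with the mean of the other strains, with 0 (DBY8268) and, within slides, with RM11a. Benjamini-Hochberg adjustment ran over all genes tested. The code was tested on simulated data. The median standard error of the difference was 0.255.

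Named genes were the 10 farthest above and below among those called with 3 values of one sign (mating genes and Ty spots aside), up to 4 called members of each list and 2 in the other direction, fixed single genes, and members opposing their list. Other genes were named after their values were seen: NTH1, STE4, MET13, and those of the closing section. Members and lists were chosen with earlier results of these data known. Genomic hybridizations of the study were not used here. The study reports that every strain it hybridized, YJM789 and RM11a among them, had fewer Ty1 copies and more mitochondrial genome copies than S288c. One gene of the named set is not reported here.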

Additional observations from a re-analysis of the deposited data

Results flagged for a closer look

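The comparison of the haploids within slides differed between strains for 9 genes, the number of Ty element spots called between YJM789 and RM11a at a false discovery rate of 0.01 by a test of the difference itself (limma). In each the ratio to DBY8268 was slightly negative in YJM789 and strongly negative in RM11a, and the differences on single slides ran from 4.42 to 5.74. Over all Ty spots the median slide difference was 5.1 and 4.98 on slides 1 and 2 but -0.57 on slide 3, where 40 spots had values in RM11a and 15 differences were above 0. Leaving out slide 1 or slide 3 left 0 calls. The part of gene copy number was not tested here. The study's genomic hybridizations found fewer Ty1 copies in both strains than in S288c.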

How the results depend on the processing

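Counts of differing genes moved most with the spread. Against the other strains, 551 genes became 250 with arrays scaled to one spread (246 of them shared), 354 with array weights, 210 with arrays of one slide series, 22 with the spread of YJM789 alone and 980 at a false discovery rate of 0.05. Leaving out 1 YJM789 array gave 304 to 611, lowest without array 3. Leaving out YJM789 array 2 and RM11a array 3 together, an alternative chosen after seeing the data, gave 498, of which 367 were shared. Against DBY8268, the same settings changed 867 to 361 when scaled, 478 in one slide series, 1374 at 0.05 and 0 with YJM789 alone (993 at an unadjusted p under 0.05), and leaving out 1 array gave 465 to 796. Between YJM789 and RM11a within slides, 9 became 0 when scaled, 30 without the replicate and slide block, 57 at 0.05, and 0 to 21 with 1 slide left out (0 without slide 1 or 3, where 54 and 270 genes had an unadjusted p under 0.05). The causes were not tested. With arrays scaled, CYC1 (-0.66), COX1 (-0.13), PHO84 (0.28) and PHO5 (0.12) reversed, none of them past the threshold in either setting. Of 132 named results, 63 were no longer called when scaled and 65 kept their call or its absence.

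Same-numbered YJM789 and RM11a arrays lay on the same slide. Their deviations from the strain's own mean correlated at 0.466, -0.729 and -0.652, so they ran in opposite directions on slides 2 and 3. With the replicate number as a block, 628 genes differed from the other strains and 829 from DBY8268. With 3 arrays, 1 of which stands apart, smaller differences could not be detected.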

Other observations

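Further retained genes outside the lists were chosen after their values were seen, so they are given as a description. MSN4, a stress transcription factor gene, had ratios of 2.32, 2.25 and 1.99 in YJM789 against a mean of 0.29 in the other strains. TFS1 and PBI2, which encode inhibitors of vacuolar proteases, stood at 2.49, 2.40 and 3.38 and at 2.37, 2.27 and 3.33, against means of 0.42 and 0.37. Both missed the threshold with arrays scaled to one spread (limma, adjusted p = 0.013 and 0.019). YGP1, a secreted glycoprotein gene, had 2.96 and 4.45 in YJM789, near RM11a at 2.92 and far above the mean of -1.13. AQY1, a water channel gene, had 5.5 and 3.32, with K9 at 3.51 as the highest other strain.

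SIR2, the silencing deacetylase gene, stood at -1.23, -1.10 and -1.55 in YJM789, below the lowest other mean of -0.99 in PR. RIB4, of riboflavin synthesis, had -3.80, -3.57 and -4.01 against a mean of -2.31, a difference that missed the threshold with arrays scaled to one spread (-0.29, limma adjusted p = 0.57). CTP1, the mitochondrial citrate carrier gene, had -1.30, -1.56 and -1.24 against 0.19, and MIG2, a repressor gene of glucose signalling, had -1.79, -1.87 and -2.06 against -0.72. For MIG2 RM11a was close to YJM789, at -1.65. The MIG2 difference also missed the threshold with arrays scaled (limma, adjusted p = 0.055). THI7, a thiamine transporter gene, had -2.39 and -2.03 in YJM789 against a mean of 0.94, with RM11a the lowest other strain at -1.33.

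URA1, dihydroorotate dehydrogenase, had ratios of -4.28, -3.81 and -4.15 in YJM789. RM11a had a mean of -0.52, the highest of the other strains. The slide differences between the haploids were -3.94, -3.34 and -3.39, but URA1 was not past the threshold in that comparison (limma, adjusted p = 0.024). Against the mean of the 16 other strains, -3.02, URA1 was not past the threshold either (limma, adjusted p = 0.041).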
